A study of Homo sapiens with 24 samples.

Results

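The control cells of A549 and H1299, both lines of human non-small cell lung cancer, were compared gene by gene in 6 of the 24 RNA sequencing libraries of a study of HEPACAM2. HEPACAM2 is a cell adhesion molecule of the immunoglobulin superfamily. The 6 libraries were chosen by their labels, which title them as A549 or H1299 control cells, give a WT genotype to each and name ATCC as the supplier. Each line had 3 control libraries, described as independent biological replicates. In the other libraries of these lines HEPACAM2 was overexpressed, and the series' other cell lines were not used here. All cells were grown in the medium their supplier recommends, and the labels name no agent or treatment of the controls. The control libraries carry the codes A549Lv and H1299Lv, in which Lv is not explained, so whether the controls hold an empty vector is not known here. HEPACAM2 had 1 read over the 3 A549 control libraries and 9 reads over the 3 H1299 control libraries, against 4974 to 7284 reads per overexpressing A549 library and 18838 to 30558 reads per overexpressing H1299 library.

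A549 was established from a lung adenocarcinoma and grows as an epithelial sheet. As background, it is known for a mutation that disables KEAP1, the adaptor that marks the transcription factor NRF2 (gene NFE2L2) for destruction, and for loss of the CDKN2A locus. H1299 came from a lymph node metastasis of a large cell carcinoma and has a more mesenchymal shape. Each line stands for 1 tumour, so the comparison describes these 2 lines and no class of tumours. The lines were also deposited in separate tables, and line and table cannot be told apart.

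The control libraries held 17505943 to 29838960 reads in A549 and 17270060 to 20332419 in H1299. Levels are CPM, the count of a gene per 1000000 reads on the 18538 genes that both tables list, which took 98.2% to 98.3% of the reads of each A549 library and 99.5% of each H1299 library. Differences are A549 minus H1299 on the log2(CPM + 1) scale, which understates the difference of genes at low levels. Across the 14919 genes tested, log2 levels of 2 libraries correlated at 0.997 within A549, at 0.992 to 0.997 within H1299 and at 0.818 to 0.828 between the lines. H1299 replicate 1 stood apart from the other 2 libraries of its line in base composition. Relative to its group mean, its log2 level rose by 0.144 per 10 percentage points of transcript GC content. The values were -0.069 and -0.076 in replicates 2 and 3 and -0.009 to 0.014 in the A549 libraries. The lines differed in this trend as well. Relative to the mean of all 6 libraries, the slopes were 0.129 to 0.152 in A549 and 0.006, -0.207 and -0.214 in H1299 replicates 1, 2 and 3.

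Of the 14919 genes, 11768 (78.9%) differed between the lines at an adjusted p under 0.05, of which 5630 (37.7%) were higher in A549 and 6138 (41.1%) in H1299. In 81.0% of the genes the 3 levels of one line did not overlap with the 3 of the other. Since most genes passed this test, only genes that also differed by at least 2-fold are called higher or lower below. There were 4630 such genes (31.0%), of which 2451 (16.4%) were higher in A549 and 2179 (14.6%) in H1299. These shares are the background for the gene groups that follow. The median difference over all genes was -0.05 and the median size of a difference was 0.65. Without H1299 replicate 1 the counts were 2577 and 2210. The plot of the mean levels in both lines shows the 2 sets of called genes on either side of the diagonal.

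**Figure D1:**
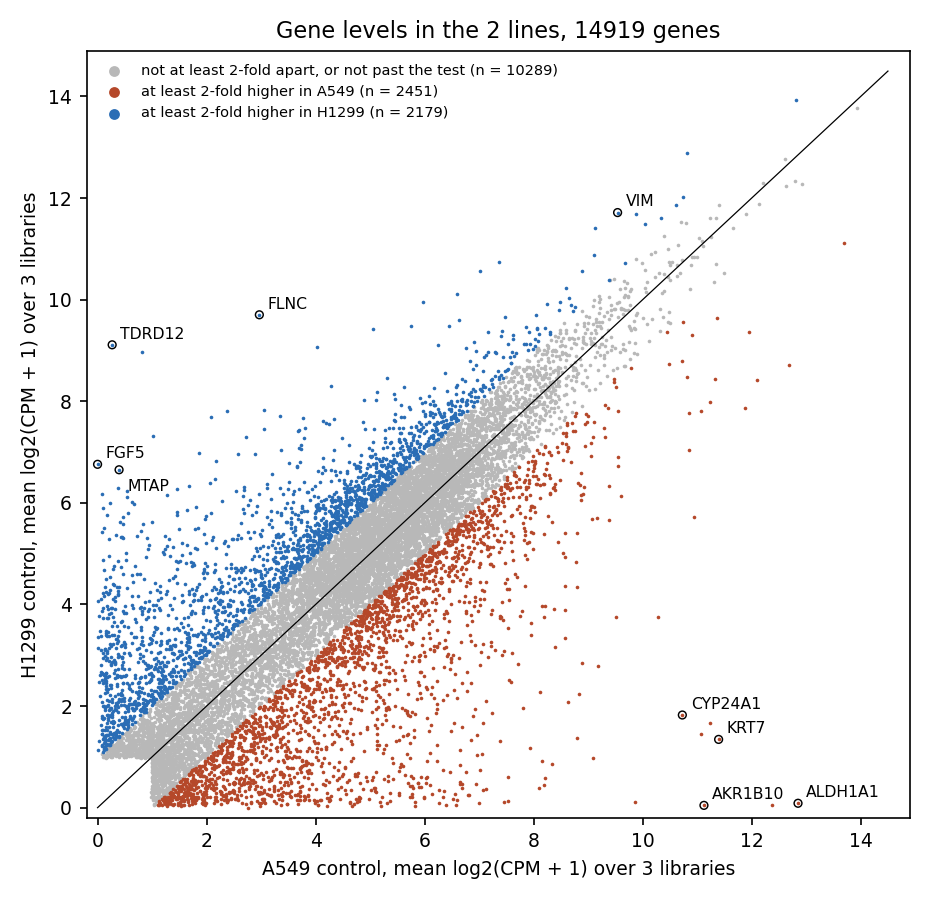
Mean log2(CPM + 1) over the 3 control libraries of A549 (horizontal) and of H1299 (vertical) for 14919 genes, 1 point per gene. The 2451 genes at least 2-fold higher in A549 and the 2179 at least 2-fold higher in H1299 are coloured, the line marks equal levels, and circles mark named genes.

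The largest difference was in ALDH1A1, an aldehyde dehydrogenase that makes retinoic acid. Its levels were 7584, 7299 and 7271 CPM in the A549 libraries and 0.198, 0 and 0 CPM in the H1299 libraries, which came from 471857 and 4 reads. The log2 difference was 12.76 ± 0.08 (SE, adjusted p = 1.15e-15, limma), and the ratio of the reads was 100982 with a 95% counting interval of 39440 to 370624. Such intervals cover counting error only. KRT81, a hair keratin, was at 5456, 5286 and 5237 CPM against 0.0989, 0 and 0 CPM (log2 difference 12.33 ± 0.07, read ratio 145637, interval 40316 to 1202578). KRT81 has a close copy, KRT86, and reads may be divided between them. AKR1B10, an aldo-keto reductase that acts on retinal and other carbonyls, was at 2293, 2254 and 2150 CPM against 0.0989, 0 and 0 CPM. These genes were abundant in every A549 library and had 4 reads or fewer over the H1299 libraries together.

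Other genes among the 12 largest differences towards A549 were KRT7 (10.05), AKR1C3 (9.75), AKR1C2 (9.62), IGFBP4 (9.57), CYP24A1 (8.90), ABCC3 (8.11), NRP1 (7.75), LTBR (7.72) and AKR1C1 (7.63), with the log2 difference in brackets. KRT7 is a keratin of simple epithelia, IGFBP4 a secreted binder of insulin-like growth factors and CYP24A1 the enzyme that breaks down vitamin D. CYP24A1 was at 1714, 1647 and 1725 CPM in A549 and at 2.47, 2.04 and 3.21 CPM in H1299. NRP1 is a co-receptor for semaphorins and VEGF, and LTBR is the lymphotoxin beta receptor. LTBR was at 284, 270 and 267 CPM against 0.247, 0.582 and 0.115 CPM.

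The largest difference towards H1299 was in TDRD12, a germ cell gene of the PIWI-interacting RNA pathway. Its levels were 548, 563 and 545 CPM in H1299 and 0.228, 0.116 and 0.273 CPM in A549 (log2 difference -8.84 ± 0.08, adjusted p = 3.09e-14). G0S2, an inhibitor of the lipase that breaks down stored fat, was at 630, 432 and 454 CPM in H1299 against 0.912, 0.581 and 0.818 CPM (-8.14). FGF5, a fibroblast growth factor, had no read in any A549 library and 100, 107 and 115 CPM in H1299, which makes it at least 2288-fold higher in H1299 with a floor of 3 reads over the A549 libraries. The levels of these 3 genes in the lines were far apart, and G0S2 was highest in H1299 replicate 1. FLNC, a filamin that crosslinks actin, was at 1059, 727 and 748 CPM against 6.73, 7.44 and 6.34 CPM (-6.73). MTAP (-6.26), MAGEA1 (-6.09), ATAD3B (-5.92), PKIA (-5.80), TMEM200A (-5.77), CFAP251 (-5.70), ANTXR2 (-5.60) and RFLNA (-5.59) completed the 12. MTAP salvages methylthioadenosine, ANTXR2 is an anthrax toxin receptor and RFLNA a partner of filamins. Genes were named here only where the libraries of the lines did not overlap, so the gap between the lines in the dot plot of these genes is set by that choice.

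**Figure D2:**
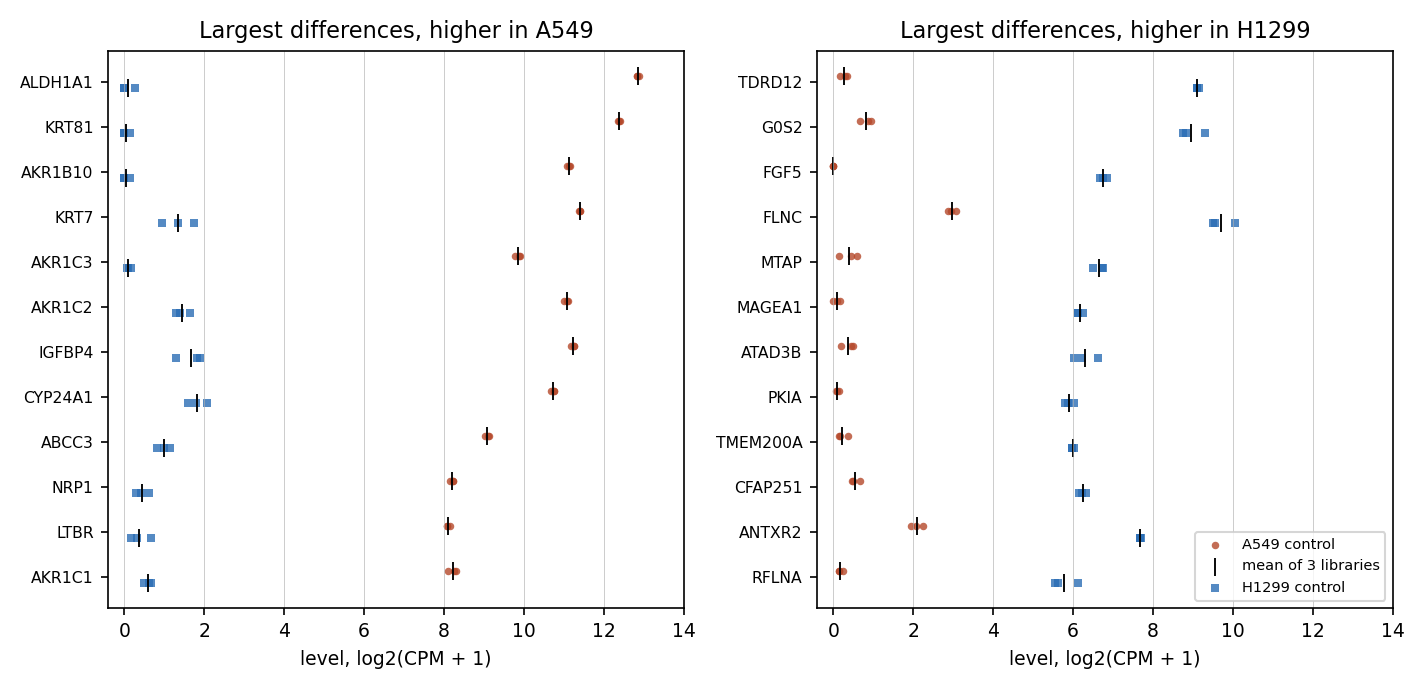
Levels as log2(CPM + 1) in each control library (circles, A549; squares, H1299; bars, mean of 3) for the 12 genes with the largest difference in each direction. Genes whose libraries overlap between the lines were left out by the choice of genes, and FGF5 lies at 0 in A549.

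NRF2 is a transcription factor that switches on oxidant defence. KEAP1 holds it down in unstressed cells, and partnered with small MAF proteins it binds the antioxidant response element in its target genes. Its known targets make glutathione, reduce thioredoxin and quinones, produce NADPH, store iron and export conjugates. Among 37 tested genes of this list, 31 were higher in A549 and 1 in H1299, with a median log2 difference of 2.98 against -0.05 over all genes tested. The summed level of the 42 listed genes was 35810 to 37470 CPM in the A549 libraries and 3573 to 3702 CPM in the H1299 libraries, here as CPM of each line's whole table.

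The regulators themselves differed less. NFE2L2 was at 90.3, 89.8 and 89.6 CPM in A549 and 83.7, 89.6 and 90.6 CPM in H1299, with overlapping levels and a difference of 0.03 ± 0.06 (adjusted p = 0.649). KEAP1 was at 109, 116 and 107 CPM against 105, 79.9 and 70.8 CPM (0.39 ± 0.13, adjusted p = 0.0188), and the closest H1299 value was that of replicate 1. MAFG, a small MAF partner of NRF2, stood at 0.93. BACH1, a repressor that competes with NRF2 for its sites, was the 1 member higher in H1299, at 63.2, 74.5 and 64.4 CPM against 24.9, 24.0 and 23.8 CPM (-1.44). BACH1 and the promoter examples below were named after their values had been seen.

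The aldo-keto reductases and the export pumps differed most. AKR1C2 was at 2215, 2168 and 2062 CPM against 1.63, 1.46 and 2.12 CPM. AKR1C1, AKR1C2 and AKR1C3 are close copies, so how reads fell among them is uncertain, while all 3 were abundant in A549 alone. ABCC2 and ABCC3, pumps that export glutathione and glucuronide conjugates, differed by 6.59 and 8.11. EPHX1, an epoxide hydrolase, was at 202, 197 and 184 CPM against 7.66, 7.04 and 6.94 CPM (4.57). Within each line the 3 libraries of these genes lay close together. GPX2, a glutathione peroxidase (374 ± 32 CPM), and ALDH3A1, an aldehyde dehydrogenase (2510 ± 121 CPM, SD, n = 3), were listed in the A549 table only.

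The core of the antioxidant response element, TGACNNNGC on either strand, was searched in the RefSeq promoters of GRCh38.p14 from 250 bases before to 50 bases after each start. It stood in 4687 of 35116 promoters (13.3%), in 12 of the 41 promoters found for 30 of the 42 NRF2 list genes (29.3%) and, for comparison, in 13 of the 49 promoters found for 31 of the 42 p53 list genes (26.5%). The p53 list thus held it in nearly the same share. The 150 bases before the start of GCLM (the modifier subunit of glutamate-cysteine ligase, which starts glutathione synthesis), EPHX1 and KEAP1 are shown because these genes hold the core close to their start while they differed by 2.04, 4.57 and 0.39. GCLM lies on the minus strand at chr1:93909431-93909580, EPHX1 on the plus strand at chr1:225825204-225825353 and KEAP1 on the minus strand at chr19:10502772-10502921. Capitals mark the core on either strand.
GCLM: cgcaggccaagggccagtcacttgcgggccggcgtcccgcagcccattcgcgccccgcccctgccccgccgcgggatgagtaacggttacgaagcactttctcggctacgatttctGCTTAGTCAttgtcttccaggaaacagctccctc
EPHX1: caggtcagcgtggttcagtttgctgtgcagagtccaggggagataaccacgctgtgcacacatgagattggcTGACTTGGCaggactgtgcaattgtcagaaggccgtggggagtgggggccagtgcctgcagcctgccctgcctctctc
KEAP1: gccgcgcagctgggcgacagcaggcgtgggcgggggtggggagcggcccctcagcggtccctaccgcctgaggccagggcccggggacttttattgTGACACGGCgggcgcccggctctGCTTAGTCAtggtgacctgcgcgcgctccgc
GCLM and KEAP1 hold the same letters, TGACTAAGC read on the opposite strand, 34 and 31 bases before their starts. GCLM was at 257, 252 and 245 CPM in A549 and 57.2, 65.4 and 58.5 CPM in H1299.

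Of 25 tested genes that metabolise drugs, retinoids and steroids 14 were higher in A549 and 4 in H1299, with a median of 2.21. Besides ALDH1A1 and CYP24A1, the members higher in A549 included ALDH2, the mitochondrial acetaldehyde dehydrogenase (161, 143 and 143 against 2.42, 2.79 and 2.75 CPM), and NNMT, which methylates nicotinamide (59.2, 58.0 and 55.5 against 0.346, 0.349 and 0.516 CPM). MGST2, a microsomal glutathione transferase, SULT2B1, a sterol sulfotransferase, and CYP26B1, which breaks down retinoic acid, differed by 4.81, 4.79 and 4.66. UGT8, which makes galactosylceramide, was highest the other way, at 29.7, 30.9 and 29.7 CPM in H1299 against 0.114, 0.174 and 0.170 CPM. Both metallothioneins that could be tested, MT2A (-2.17) and MT1X (-1.22), were higher in H1299. MT1A and MT1F, at 2.25 and 3.02 CPM, were listed in the A549 table only, and where genes of either table were tested, each line had 2 metallothioneins that were higher there. MT2A binds zinc and copper and stood at 480, 343 and 317 CPM against 85.2, 78.9 and 82.5 CPM.

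Hepatocytes secrete fibrinogen, complement and apolipoproteins under the control of HNF4A, FOXA, CEBP and other factors, and some lung adenocarcinomas are known to express such genes. Of 10 tested liver-enriched transcription factors 6 were higher in A549 and 1 in H1299, with a median of 2.82. NR5A2, a nuclear receptor of liver and pancreas, was at 53.8, 50.9 and 52.7 CPM in A549 against 0.395, 0.291 and 0.344 CPM in H1299 (5.31). FOXA1 (4.42), CEBPA (2.84), CEBPB (2.83) and FOXA3 (2.81) were also higher in A549. HNF4A (32.4 ± 1.6 CPM) and FOXA2 (66.7 ± 1.3 CPM) were listed in the A549 table only. GATA6, an endoderm factor, was the member higher in H1299, at 14.3, 12.7 and 9.52 CPM against 4.33, 4.19 and 3.61 CPM.

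The plasma protein genes themselves were split between the tables. Of 56 genes, 24 were listed in the A549 table only, 1 in the H1299 table only and 20 in neither, and 8 could be tested. Over all genes, 2768 of the 21306 in the A549 table and 2169 of the 20707 in the H1299 table were in that table only. Of the 24 genes, 10 were below 1 CPM, among them APOA1 (0.212 CPM) and TF (0.484 CPM), as was the 1 H1299 gene. Of the 8 tested genes, 4 were higher in A549 and 1 in H1299 (median 0.82). The summed level of the whole list was 1334 to 1563 CPM in A549 and 74.2 to 83.3 CPM in H1299. The fibrinogen chains FGA, FGB and FGG stood at 197 ± 21, 347 ± 30 and 273 ± 30 CPM in A549. CP, the copper carrier ceruloplasmin, was at 109, 109 and 87.7 CPM in A549 and 0.346, 0.699 and 0.172 CPM in H1299 (6.21). C5, the complement component that starts the membrane attack complex, was at 193, 184 and 181 CPM against 5.19, 4.6 and 4.42 CPM (5.03). SERPINA1, the antitrypsin gene, was the member higher in H1299 (-3.14), at 9.0, 10.01 and 9.75 CPM against 0.228, 0.233 and 0.136 CPM.

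Of 11 defining hepatocyte markers, ALB and TTR among them, 6 were in neither table and 3 could be tested. Of these 3, 2 were higher in A549 and 1 in H1299 (-1.75). The summed level of the markers was 75.8 to 84.0 CPM in A549, nearly all of it from CPS1, the entry enzyme of the urea cycle (81.3, 82.7 and 74.7 CPM), and 4.34 to 4.48 CPM in H1299.

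The core of the HNF1 site, GTTAATNAT on either strand, stood in 278 of 35116 promoters (0.792%), in 6 of the 58 promoters found for 43 of the 56 plasma protein genes (10.3%), in 0 of 41 NRF2 list promoters and in 0 of 49 p53 list promoters. Plasma protein genes listed in the A549 table only held it in 2 of 27 promoters (7.41%). Those higher in A549 held it in 1 of 4, and the remaining matches lay at other genes of the list. The 150 bases before the start of FGA and C5 are shown because both hold the core, in capitals, near the start and stand for the secreted genes above. FGA lies on the minus strand at chr4:154590743-154590892 and C5 on the minus strand at chr9:121050276-121050425.
FGA: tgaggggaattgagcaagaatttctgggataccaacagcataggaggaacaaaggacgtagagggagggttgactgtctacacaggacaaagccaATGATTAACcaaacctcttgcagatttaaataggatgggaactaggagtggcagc
C5: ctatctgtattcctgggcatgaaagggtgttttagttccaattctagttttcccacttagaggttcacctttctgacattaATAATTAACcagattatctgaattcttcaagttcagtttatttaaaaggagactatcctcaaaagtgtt
The match lies 55 bases before the FGA start and 69 bases before the C5 start. Such matches describe the sequence and do not show binding.

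p53 is a transcription factor that responds to DNA damage, and its targets arrest the cell cycle, repair DNA and start apoptosis. Of 36 tested genes of the pathway, 15 were higher in A549 and 3 in H1299 (median 0.78). The other 18 were within 2-fold or did not pass the test.

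The p53 list member with the largest difference was GDF15, a secreted stress cytokine of the TGF-beta family. It was at 134, 122 and 129 CPM in A549 and 0.890, 0.349 and 0.803 CPM in H1299 (6.28). FDXR, the mitochondrial ferredoxin reductase, was at 73.4, 75.0 and 73.3 CPM against 9.94, 6.40 and 7.86 CPM (3.06). The apoptosis genes BAX, at 196, 184 and 195 CPM against 46.6, 34.2 and 30.7 CPM (2.35), and BBC3 (PUMA, 2.57) were also higher in A549. So were CYFIP2 (2.77), BTG2, an antiproliferative factor (2.72), INKA2 (2.54) and TP53I3 (2.18). None of these had a level in A549 that overlapped with H1299, but they were named for their large differences, which favours such a gap. Over all genes tested, 81.0% did not overlap between the lines either.

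The 2 targets most often used as readouts of p53 differed less. CDKN1A, the p21 inhibitor of cyclin-dependent kinases, was at 116, 107 and 109 CPM against 56.0, 53.4 and 49.0 CPM (1.05 ± 0.07), and fell below the 2-fold line when each library's GC trend was removed (0.88). MDM2, the ligase that degrades p53, was at 109, 106 and 111 CPM against 75.3, 84.7 and 83.0 CPM (0.42 ± 0.07). In the other direction, the death receptor FAS was at 24.0, 26.4 and 28.6 CPM in H1299 against 11.1, 11.6 and 11.1 CPM (-1.15), and GADD45A (-1.36) and CCNG1 (-1.13) were the other 2 members higher there. FAS and CCNG1 came within 2-fold with the GC trend removed, at -0.91 and -0.88. These 3 were named after their values had been seen.

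**Figure D3:**
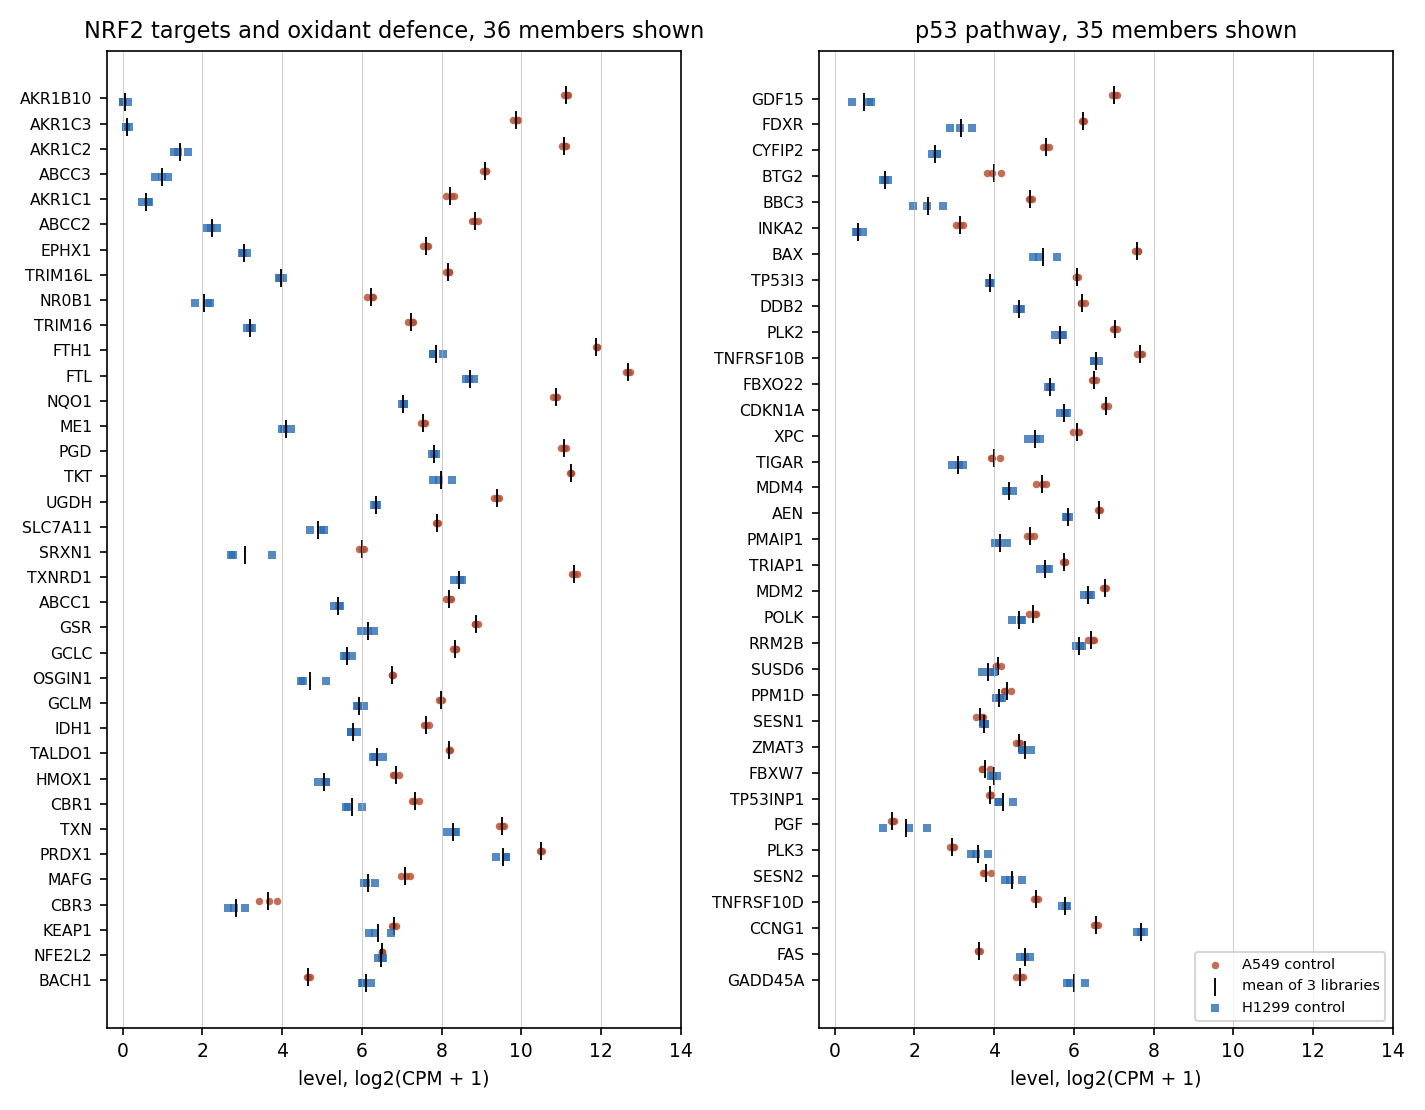
Levels as log2(CPM + 1) in each control library (circles, A549; squares, H1299; bars, mean of 3) for tested genes of the NRF2 list and of the p53 pathway, ordered by difference. NRF2 list genes lie higher in A549 down to the regulators NFE2L2 and KEAP1, while p53 pathway genes run from GDF15 through a middle without a 2-fold difference to GADD45A.

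Epithelial cells hold together through cadherin, desmosome and tight junctions and carry simple keratins in their cytoskeleton. Of 27 tested genes of adhesion and junctions, 16 were higher in A549 and 1 in H1299 (median 1.42). SPINT2, an inhibitor of surface serine proteases, was at 607, 573 and 561 CPM in A549 and 6.67, 5.36 and 5.68 CPM in H1299 (6.40). JUP, the junction protein plakoglobin, was at 485, 467 and 459 CPM against 6.92, 6.29 and 5.50 CPM (6.03). The epithelial surface marker EPCAM was at 30.6, 28.7 and 25.7 CPM against 0.297, 0.466 and 0.115 CPM (4.51). EVPL (5.77) and PKP3 (3.16) of the desmosome and MARVELD2 (3.40) and TJP3 (3.17) of tight junctions followed. CDH1, E-cadherin, was listed in the A549 table only, at 83.3, 75.9 and 79.8 CPM, as was ELF3, an epithelial transcription factor, at 250 ± 7 CPM. The scaffold TJP1 did not pass the test, at 185, 182 and 183 CPM against 163, 185 and 176 CPM (0.07, adjusted p = 0.313).

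Among keratins and other intermediate filaments 8 of 13 tested genes were higher in A549 and 3 in H1299 (median 1.90). KRT8 and KRT18, the keratin pair of simple epithelia, were present in both lines. KRT8 was at 4305, 4467 and 4402 CPM in A549 and 396, 323 and 304 CPM in H1299 (3.69), and KRT18 at 3895, 3976 and 4004 CPM against 713, 636 and 629 CPM (2.59). KRT19 was at 60.4, 62.8 and 63.4 CPM against 0.198, 0.116 and 0.115 CPM, so it was near 0 in H1299 where KRT8 and KRT18 were not. NEFH, a neurofilament (-4.34), KRT15 (-2.57) and INA, an internexin (-1.30, named after its value was seen), were higher in H1299. NEFH was at 20.8, 21.5 and 22.8 CPM there and 0.114, 0.174 and 0.0682 CPM in A549.

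Secretory genes of mucous airways were largely a matter of which table listed them. Of 37 genes, 21 were listed in the A549 table only, 2 in the H1299 table only and 6 in neither, where over all genes 2768 of the 21306 in the A549 table and 2169 of the 20707 in the H1299 table were in that table only. Of the 21 genes, 8 were below 1 CPM, among them MUC2 (0.206 CPM) and TFF3 (0.0787 CPM). AGR2, a chaperone of mucin folding, stood at 475, 467 and 421 CPM in A549, the gel-forming mucins MUC5AC and MUC5B at 66.9 ± 7.9 and 27.1 ± 3.7 CPM, and SPDEF, the goblet cell factor, at 31.0 ± 3.5 CPM. Of the 6 tested members 3 were higher in A549, among them the mucin glycosyltransferases GALNT12 (3.51) and GALNT5 (3.11), and 2 in H1299, of which CREB3L1 stood at 15.6, 13.2 and 12.1 CPM against 5.07, 5.64 and 4.09 CPM. The chaperone, both gel-forming mucins and their regulator were thus listed on the A549 side.

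Alveolar and distal airway markers were mostly low or not listed. Of 27 genes 11 were in neither table, the surfactant gene SFTPB among them, and NKX2-1, the lung lineage factor, was listed in the H1299 table only, at a mean of 0.313 CPM. Of 9 tested genes 2 were higher in A549 and 3 in H1299. SOX2, an airway progenitor factor, was at 33.6, 35.5 and 33.6 CPM in A549 against 4.25, 3.78 and 3.04 CPM (2.92). TP63, a basal cell factor, had 6.67, 5.12 and 5.62 CPM in A549 and no read in H1299, which makes it at least 106-fold higher. SOX9, a distal tip factor, was at 72.8, 59.9 and 53.2 CPM in H1299 against 24.8, 22.3 and 20.01 CPM (-1.42), and LAMP3 (-2.15) was also higher there. The third, ETV5 (-1.02), fell within 2-fold with the GC trend removed (-0.94).

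Mesenchymal genes were divided. Of 30 tested, 11 were higher in H1299 and 7 in A549 (median -0.40). VIM, vimentin, was at 3535, 3403 and 3153 CPM in H1299 and 731, 760 and 740 CPM in A549 (-2.17 ± 0.06). ZEB2, a repressor of E-cadherin, was at 42.8, 43.1 and 44.7 CPM against 2.34, 2.38 and 2.69 CPM (-3.68). CCN1, a matricellular target of the Hippo effector YAP, was at 1042, 942 and 1003 CPM against 61.2, 60.6 and 62.9 CPM (-3.99). NT5E, the ecto-nucleotidase CD73 (-3.73), and MYL9, a myosin light chain (-4.17), were also higher in H1299. Other genes of the list went towards A549, with S100A4, a calcium-binding protein of motile cells, at 289, 293 and 272 CPM against 1.19, 0.699 and 0.803 CPM (7.24), and GREM1, a BMP antagonist, at 4.12. Vimentin was thus present in both lines, and the list did not point one way.

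Genes that remodel the matrix leaned towards H1299. Of 27 tested proteases and inhibitors 13 were higher in H1299 and 9 in A549 (median -0.97). The plasminogen activation genes were among them. PLAU, urokinase, was at 558, 551 and 542 CPM in H1299 and 72.9, 70.6 and 80.0 CPM in A549 (-2.87). Its receptor PLAUR was at 336, 266 and 274 CPM against 34.6, 32.4 and 34.4 CPM (-3.07). PLAT, the tissue-type activator, stood at -2.95. MMP14, a membrane-bound metalloproteinase, was at 166, 133 and 123 CPM against 11.3, 12.2 and 13.4 CPM (-3.40). Another pair of membrane-type metalloproteinases went the other way, MMP15 with 5.32 and MMP24 with 5.09. MMP15 was at 62.4, 60.3 and 57.4 CPM in A549 and 0.741, 0.291 and 0.573 CPM in H1299.

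Collagens leaned towards A549, with 12 of 20 tested genes higher there and 5 in H1299 (median 2.11). COL5A2, a fibrillar collagen, was at 455, 440 and 437 CPM in A549 against 1.58, 1.11 and 2.12 CPM (7.44). The basement membrane chains COL4A1 (6.29), COL4A6 (5.53), COL4A5 (4.01) and COL4A4 (3.68) were all higher in A549, and COL4A2 was listed in that table only, at 232, 234 and 236 CPM. COL4A1 was at 95.1, 91.0 and 93.5 CPM against 0.148, 0.349 and 0.115 CPM. COL17A1, a hemidesmosome collagen, was higher in H1299 at 16.9, 14.03 and 13.9 CPM against 0.456, 0.698 and 0.511 CPM (-3.36).

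Of 41 tested laminins, glycoproteins and proteoglycans 22 were higher in A549 and 11 in H1299 (median 1.15). LAMA5, a laminin chain of epithelial basement membranes, was at 779, 731 and 818 CPM against 95.5, 61.3 and 56.4 CPM (3.47), LAMA3 stood at 3.64, and the heparan sulfate proteoglycans SDC1 and GPC1 stood at 4.54 and 3.98. LAMA2, a laminin chain of muscle and nerve (-3.52), and MFAP2, a microfibril protein (-3.94), were higher in H1299. Among 18 tested integrins 6 were higher in A549 and 4 in H1299 (median 0.34), and in the overexpressing libraries 6 and 7 (median -0.38). ITGB4, the hemidesmosome beta chain, was at 111, 107 and 107 CPM in A549 against 6.33, 5.30 and 4.59 CPM (4.10). Its partner ITGA6 went the other way, at 731, 776 and 827 CPM in H1299 against 98.8, 103 and 91.5 CPM (-2.98). ITGA4, an alpha chain of white blood cells, was at 58.5, 62.3 and 66.6 CPM against 0.741, 0.581 and 0.477 CPM (-5.31).

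Adhesion molecules of the immunoglobulin superfamily, the family of HEPACAM2, were higher in A549 in 12 of 25 tested genes and in H1299 in 4 (median 0.76). NRCAM, a neuronal cell adhesion molecule, was at 99.8, 99.6 and 100.2 CPM in A549 against 0.989, 0.582 and 0.803 CPM (5.82). ALCAM was at 344, 334 and 320 CPM against 13.5, 15.2 and 13.7 CPM (4.46), and IGSF3 stood at 4.28. ICAM1, which binds leukocyte integrins, was higher in H1299 at 47.2, 42.5 and 41.6 CPM against 2.05, 1.69 and 1.74 CPM (-3.99), as was JAM3 (-3.75). Among 18 tested neuroendocrine and neuronal genes 11 were higher in A549 and 2 in H1299 (median 1.20), and 13 of the 40 listed genes were in neither table. In the H1299 table only were 5, of which 3 were below 1 CPM, and in the A549 table only 2, both below 1 CPM. With genes of either table the counts were 11 and 4 (median 1.08). CNTN1, contactin, was at 755, 750 and 677 CPM against 12.9, 14.1 and 10.8 CPM (5.75), while the granule gene CPE was at 16.4, 16.6 and 16.2 CPM in H1299 against 1.54, 1.74 and 1.64 CPM (-2.72). In the overexpressing libraries of the same lines 5 neuronal genes were higher in A549 and 2 in H1299.

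**Figure D4:**
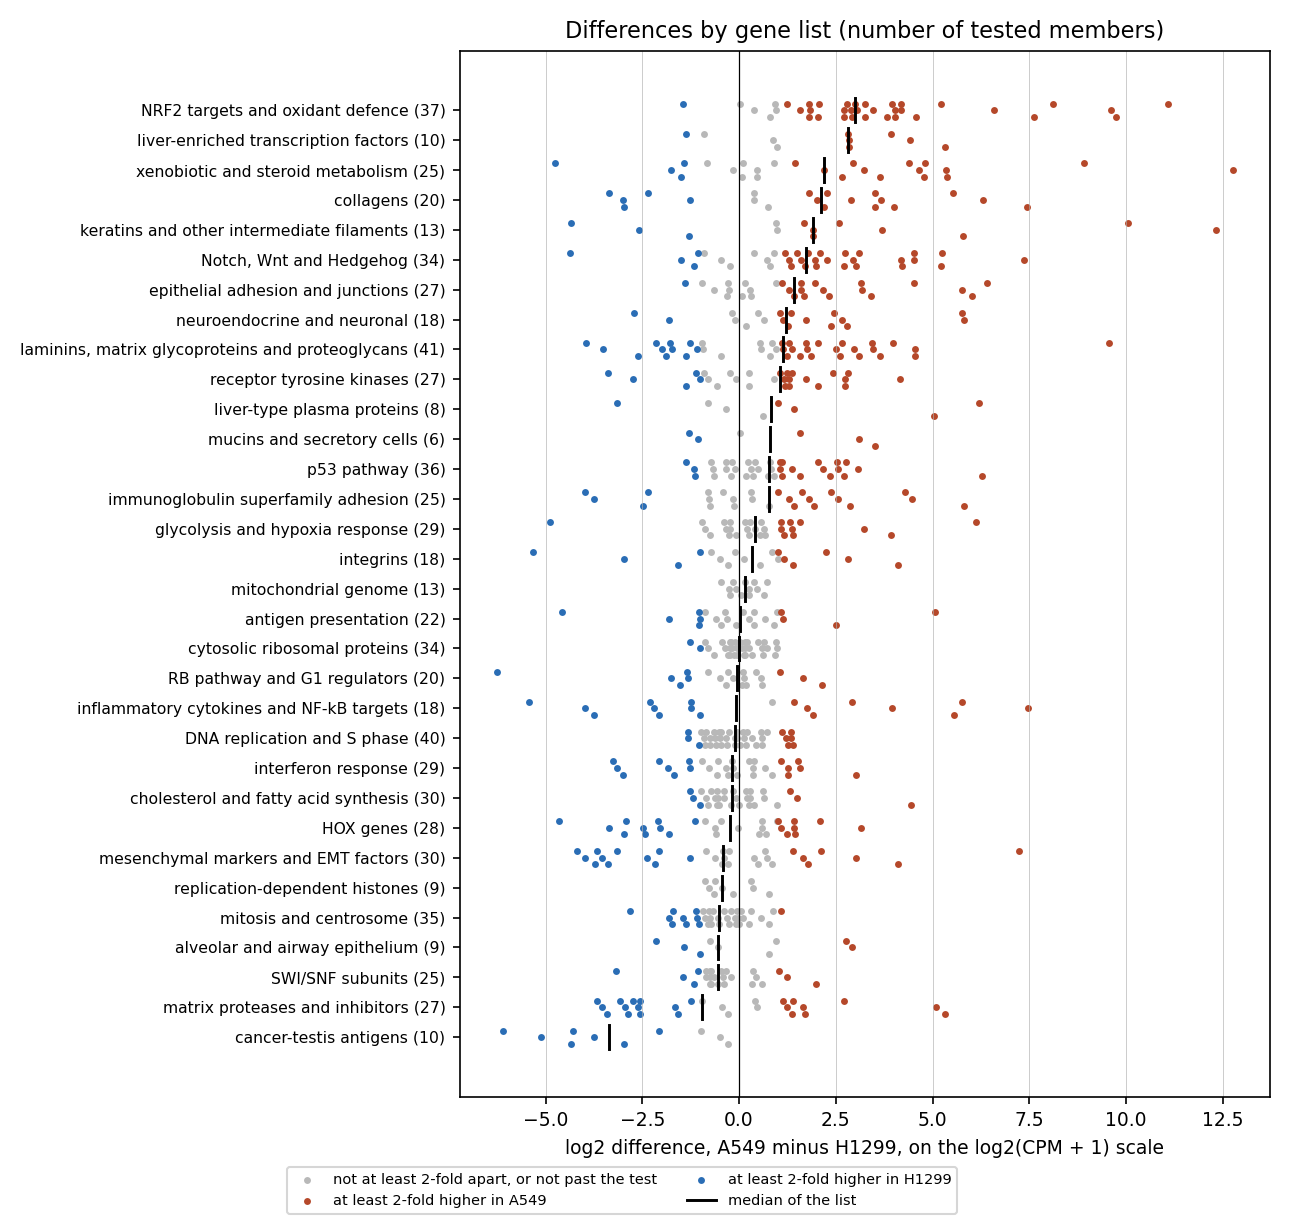
Log2 differences, A549 minus H1299, of the tested members of each gene list with at least 5 of them, ordered by the list median (black bar), with the number of tested members in brackets. The NRF2 list lies highest with a median of 2.98, and the cancer-testis list lowest with a median of -3.36.

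Receptor tyrosine kinases receive growth factors at the cell surface. Of 27 tested, 14 were higher in A549 and 5 in H1299 (median 1.07), and with a pseudocount of 5 the counts were 7 and 2. FGFR3 was at 37.2, 34.7 and 38.2 CPM in A549 against 1.38, 1.11 and 0.860 CPM (4.16), IGF1R at 207, 189 and 192 CPM against 31.3, 27.4 and 26.8 CPM (2.74) and ERBB2 at 149, 152 and 144 CPM against 31.6, 24.6 and 24.4 CPM (2.43). The receptors of the TAM family AXL and MERTK were higher in H1299. AXL was at 1755, 1677 and 1705 CPM there against 159, 170 and 162 CPM (-3.38), and MERTK stood at -2.74. EGFR was within 2-fold, at 102, 101 and 99.7 CPM in A549 and 116, 112 and 125 CPM in H1299 (-0.22), while in the overexpressing libraries it was higher in A549 (1.16). MET, the hepatocyte growth factor receptor, stood at 0.91.

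Genes of the Notch, Wnt and Hedgehog pathways were higher in A549 in 23 of 34 tested cases and in H1299 in 4 (median 1.74). The ligand WNT7B was at 173, 177 and 177 CPM in A549 and 0.247, 0 and 0 CPM in H1299 (7.36). DKK1, a secreted Wnt inhibitor, was at 400, 377 and 362 CPM against 9.54, 10.1 and 7.91 CPM (5.23), and LGR4, a receptor that enhances Wnt signals, stood at 5.24. The receptor NOTCH3 was at 87.4, 86.5 and 79.9 CPM against 4.55, 3.84 and 2.81 CPM (4.19). The Hedgehog effectors GLI1 and GLI2 differed by 4.20 and 4.53, GLI1 with 45.7, 43.4 and 46.2 CPM against 1.83, 1.51 and 1.20 CPM. WNT5B, a ligand of the noncanonical branch, was the gene furthest towards H1299, at 64.4, 53.1 and 50.7 CPM against 2.11, 1.4 and 1.74 CPM (-4.38).

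Inflammatory cytokines and NF-kB targets were divided, with 8 of 18 tested genes higher in A549 and 9 in H1299 (median -0.09). The median depended on which genes entered, at 1.21 with genes of either table (12 and 9) and at -1.02 with a filter at 5 CPM. TNFAIP2 was at 319, 306 and 337 CPM in A549 against 1.14, 0.873 and 0.516 CPM (7.46). PTGS2, the inducible cyclooxygenase, was at 91.6, 91.9 and 78.7 CPM against 0.741, 0.757 and 0.401 CPM (5.76). The cytokines IL18 (5.56), CSF1 (3.96) and LIF (2.93) were higher in A549, and the chemokine CXCL5 was listed in that table only, at 409, 409 and 385 CPM. CXCL2 was higher in H1299, at 261, 210 and 206 CPM against 4.05, 4.01 and 4.57 CPM (-5.44), together with IL32 (-3.75). The 2 lines thus expressed different members of this list.

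Of 29 tested interferon response genes 6 were higher in A549 and 8 in H1299 (median -0.18). IFIH1, a sensor of double-stranded RNA, was at 21.7, 23.8 and 22.5 CPM against 1.77, 1.34 and 1.98 CPM (-3.14), CGAS, a DNA sensor, at 56.0, 58.2 and 55.8 CPM against 15.2, 11.1 and 12.3 CPM (-2.07), and RIGI and STING1 stood at -1.84 and -1.67. ISG20, an exonuclease, was higher in A549 (3.02), as was OAS3, another sensor of double-stranded RNA (1.58), and OAS1 was listed in the A549 table only, at 49.0 CPM. In the overexpressing libraries the counts were 3 and 16. Among 22 tested antigen presentation genes 4 were higher in A549 and 5 in H1299 (median 0.01). HLA-B was at 174, 143 and 153 CPM in H1299 against 7.13, 4.71 and 5.15 CPM (-4.58), and B2M, the light chain of class I molecules, at 309, 371 and 377 CPM against 176, 171 and 167 CPM (-1.03, or -0.81 with the GC trend removed). HLA genes resemble one another and vary between people, so reads counted on 1 reference are uncertain. HLA-DMB, a class II peptide loader, was higher in A549 at 41.9, 41.3 and 37.1 CPM against 0.0494, 0.407 and 0.229 CPM (5.07). In the overexpressing libraries 1 and 8 genes of this list were higher in A549 and H1299.

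Cancer-testis antigens are germ cell genes that tumours often express. Of 10 tested, 7 were higher in H1299 (median -3.36), and all 10 had a higher mean there. Of the rest, 13 of the 58 listed genes were in the H1299 table only, 7 in the A549 table only and 26 in neither. All 7 genes of the A549 table and 5 of the 13 of the H1299 table were below 1 CPM. The shares of such genes over all genes were 2768 of 21306 in the A549 table and 2169 of 20707 in the H1299 table. MAGEA1 was at 75.6, 69.3 and 69.3 CPM in H1299 and 0, 0.116 and 0.0682 CPM in A549 (-6.09). MAGEA12 (-5.12), MAGEA3 (-4.35), CSAG1 (-4.30) and MAGEA6 (-2.07), all genes of the X chromosome, were also higher in H1299, and MAGEA4 was listed in that table only, at 783, 866 and 814 CPM. MAGEA and CSAG genes have close copies, so values of single members are uncertain. The summed level of the list was 2402 to 2565 CPM in H1299 and 466 to 468 CPM in A549. LIN28B, a fetal RNA-binding protein that blocks let-7 microRNAs, was at 156, 182 and 178 CPM against 12.3, 11.8 and 11.6 CPM (-3.74). PRAME was present in both lines, at 167, 165 and 169 CPM in A549 and 233, 234 and 237 CPM in H1299 (-0.49).

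HOX genes record position along the body axis. Of 28 tested, 8 were higher in A549 and 10 in H1299 (median -0.24). HOXB4 was at 93.2, 79.2 and 68.8 CPM in H1299 against 2.05, 2.38 and 2.22 CPM (-4.65), and HOXB2 stood at -3.37. HOXA9 was higher in H1299 (-2.97), whereas HOXA3 of the same cluster was higher in A549, at 32.0, 32.4 and 35.8 CPM against 3.71, 2.79 and 2.18 CPM (3.16). Members of 1 cluster therefore differed in opposite directions.

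The RB pathway controls entry into the cell cycle, and its inhibitors CDKN2A and CDKN2B lie beside MTAP on chromosome 9. MTAP was at 88.8, 106 and 105 CPM in H1299 and 0.114, 0.349 and 0.511 CPM in A549 (5445 against 23 reads, -6.26 ± 0.13). CDKN2A and CDKN2B were listed in the H1299 table only, with 4834 and 1157 reads and levels of 86.2 ± 25 and 20.96 ± 1.01 CPM. On the MTAP side, KLHL9 had 4268 reads in A549 and 1582 in H1299. On the CDKN2B side, DMRTA1 had 81 and 263. CDKN2B-AS1, which spans CDKN2B, had 391 and 685. Genes on both sides of MTAP and the CDKN2 genes thus had reads in A549. Of 20 tested genes of the RB pathway 3 were higher in A549 and 5 in H1299 (median -0.04). CDK6 was at 227, 257 and 244 CPM in H1299 against 73.6, 72.1 and 68.6 CPM (-1.75), and CCND3 at 337, 337 and 328 CPM in A549 against 83.6, 73.5 and 69.95 CPM (2.13). CCND1 did not pass the test (0.14, adjusted p = 0.192).

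Of 40 tested genes of DNA replication 6 were higher in A549 and 3 in H1299 (median -0.12), against the background shares of 16.4% and 14.6%. PCNA, the replication clamp, was at 374, 363 and 356 CPM in A549 against 140, 150 and 141 CPM (1.33). Of 35 tested mitosis genes 1 was higher in A549, TOP2A (1.09), and 9 in H1299 (median -0.51). NDC80, which attaches chromosomes to the spindle, was at 139, 163 and 163 CPM in H1299 against 20.7, 21.8 and 21.3 CPM (-2.81), and TTK (-1.82), CDC20 (-1.74) and BUB1 (-1.69) of the spindle checkpoint followed. In the overexpressing libraries 5 mitosis genes were higher in H1299, and CDC20 stood at -0.80. Among 25 tested SWI/SNF chromatin remodelling subunits 3 were higher in A549 and 4 in H1299 (median -0.55). The alternative ATPases SMARCA4 and SMARCA2 were within 2-fold, SMARCA4 at 15.7, 16.5 and 19.2 CPM against 29.5, 25.4 and 27.1 CPM (-0.64) and SMARCA2 at 38.1, 36.9 and 37.5 CPM against 25.3, 24.1 and 24.7 CPM (0.58).

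Of 29 tested genes of glycolysis and the hypoxia response 10 were higher in A549 and 1 in H1299 (median 0.42). The exception was HK2, the hexokinase induced in many tumours, at 73.6, 70.5 and 67.8 CPM in H1299 against 1.54, 1.22 and 1.47 CPM (-4.90). NDRG1 was at 78.9, 80.6 and 79.3 CPM in A549 against 0.0989, 0.116 and 0.287 CPM (6.11), and PFKFB3, which makes the activator of phosphofructokinase, at 444, 431 and 431 CPM against 28.7, 28.99 and 25.2 CPM (3.93). GAPDH did not pass the test (-0.09, adjusted p = 0.199). Of 30 tested genes of cholesterol and fatty acid synthesis 3 were higher in each line (median -0.19). FADS2, a fatty acid desaturase, was at 445, 446 and 439 CPM in A549 against 21.9, 17.9 and 18.6 CPM (4.44).

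By position, chromosome 6 held the highest share of genes higher in H1299. Of its 754 tested genes 333 (44.2%) were higher in H1299 and 48 in A549, with a median of -0.90. With each library's GC trend removed the count was 284, and in the overexpressing libraries it was 338 of 762. Chromosome 17 held the highest share towards A549, with 288 of 970 genes (29.7%) against 33 in H1299 and a median of 0.55. The counts there were 267 with the GC trend removed and 239 of 968 in the overexpressing libraries. Chromosome 20 had 102 of 375 genes higher in A549 and chromosome 18 had 52 of 216 higher in H1299. Genes of 1 chromosome can share a gain or loss of a segment, so they are no replicates, and copy number was not measured here.

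**Figure D5:**
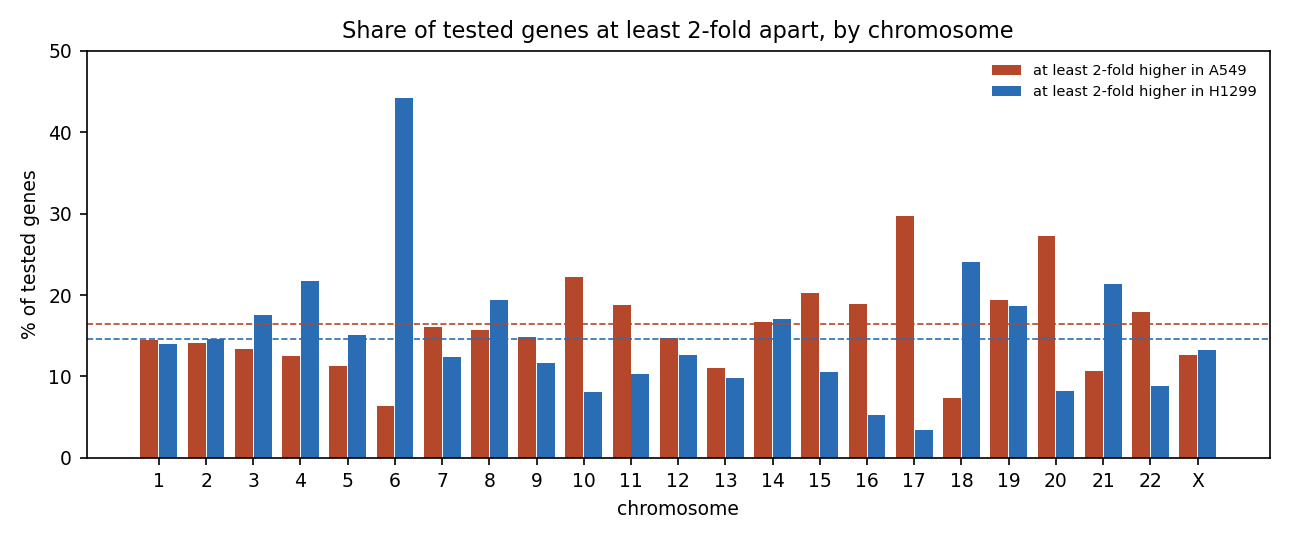
Share of tested genes on each chromosome that were at least 2-fold higher in A549 or in H1299, in %. Dashed lines mark the shares over all tested genes, 16.4% and 14.6%, and chromosome 6 reaches 44.2% towards H1299 and chromosome 17 reaches 29.7% towards A549.

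The 13 protein-coding genes of the mitochondrial genome summed to 49652 to 65734 CPM in A549 and 44311 to 65175 CPM in H1299. Of these 13, 6 differed at an adjusted p under 0.05 in limma, each by less than 2-fold. This was a smaller share than the 78.9% of all genes tested that passed that threshold. Of 34 tested cytosolic ribosomal protein genes 2 were higher in H1299, RPL7 (-1.26) and RPL5 (median -0.01). Another 20 passed the same threshold at less than 2-fold and 12 did not pass, again against 78.9% passing over all genes. RPL5 lay at the 2-fold line, and its difference was -0.75 with the GC trend removed. Of 9 tested replication-dependent histone genes 7 differed at an adjusted p under 0.05, each by less than 2-fold. That is near the 78.9% over all genes tested. Markers of other cell types were low in both lines, with higher sums of fibroblast and blood cell markers in A549 and of endothelial markers in H1299. The summed level of 11 fibroblast markers was 19.1 to 20.7 CPM in A549 and 1.04 to 2.26 CPM in H1299, with 3 of the 11 in neither table, and COL1A1 made up most of it in A549 (13.6, 12.97 and 12.95 CPM). The 18 blood cell markers summed to 5.08 to 5.60 and 1.03 to 2.20 CPM, and the 10 endothelial markers to 1.06 to 1.77 and 2.90 to 4.38 CPM. Of the 18 blood cell markers, 8 were in neither table and 1, CD14, could be tested. CD14 had 245 reads over the A549 libraries and 7 over the H1299 libraries, and made up most of the A549 sum. PTPRC, CD3D, COL1A2 and FAP were in neither table. The p-values throughout set the difference between the lines against the spread between libraries within each line. That spread includes the shift of H1299 replicate 1 in base composition. Differences between the 2 tables' library preparation or sequencing were not tested.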

How the data were processed

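RNA sequencing data of the 6 control libraries of A549 and H1299 were used. Per the labels' protocols, RNA was purified with on-column DNase treatment and made into strand-specific libraries. The submitters' processing notes name CASAVA, FastQC, Trim Galore, STAR, DESeq2 and the build hg38. Versions, the counting step and its annotation are not stated there. The values deposited by the authors are a signal, counts divided by a size factor per library. Whole reads were recovered for 100% of values, within 0.01.

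The 2 tables, of 21306 and 20707 genes, were joined on the gene identifier. Every listed gene had at least 10 reads over the 6 libraries of its table. The 18538 shared genes were rescaled to CPM (counts per 1000000 reads), which cancels the size factor. Genes in 1 table only (2768 and 2169) are given as levels in CPM of that table and were not tested. Genes with a mean of at least 1 CPM in 1 group were tested with limma 3.58.1 (trend and robust) in R 4.3.3 on log2(CPM + 1), with Benjamini-Hochberg adjustment over all 14919 genes. Called genes had an adjusted p under 0.05 and a log2 difference of at least 1. Symbols came from a table of gene names and coordinates from GENCODE 29.

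The comparison, the 37 gene lists and the tests were chosen with earlier results of these data known. Lists are described by counts and medians, with no set test. Named genes are the 12 largest differences in each direction with a mean of at least 20 CPM and no overlap, up to 8 called members of a list with the largest difference and a mean of at least 5 CPM, up to 3 abundant members not called, and landmarks of these lines. Some genes that this rule names are not reported here. Genes in 1 table, GCLM, neighbours of CDKN2A, the genes of the closing windows and those marked in the text were chosen after their values were seen. Alternatives were other scalings, filters and pseudocounts, edgeR 4.0.16 and DESeq2 1.42.0 on recovered reads, genes of either table, removal of each library's GC trend, the overexpressing libraries and leaving out each library.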

Additional observations from a re-analysis of the deposited data

How the results depend on the processing

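The counts of 2451 genes at least 2-fold higher in A549 and 2179 in H1299 became 1583 and 1396 with a pseudocount of 5, which shrinks differences at low levels by construction. Under the other alternatives they stayed within 1.5 times, from 1855 (overexpressing libraries) to 3092 (DESeq2) and from 1857 (a filter at 5 CPM) to 2683 (genes of either table). Leaving out 1 library gave 2383 to 2577 and 2140 to 2215 genes, 11074 to 12518 at an adjusted p under 0.05, and 402 to 413 called list members instead of 408. Of 29 lists with at least 5 called members, that number moved by over 1.5 times in 7 with a pseudocount of 5, in 4 with genes of either table, in 3 in the overexpressing libraries and in 1 with a filter at 5 CPM. With genes of either table, counts in A549 and H1299 became 17 and 1 for plasma proteins, 10 and 1 for liver factors, 16 and 3 for mucins and 0 and 15 for cancer-testis antigens. In the overexpressing libraries the mesenchymal median was 0.11 (9 and 11) and the replication median 0.19 (8 and 1). Replicate numbers did not pair the lines: deviations of same-numbered libraries correlated at -0.01, 0.06 and 0.03, and with the replicate number as a block the counts were again 2451 and 2179, with 11788 genes at an adjusted p under 0.05. Of the 4630 calls, 3979 remained with the GC trend removed and 3141 in the overexpressing libraries, where 92 had the opposite sign and 3 were called the other way (ADAM19 from -1.64 to 1.01, CLMN from 1.34 to -1.09 and ADSS1 from 1.12 to -1.39). Of the genes named above, EGFR turned there from -0.22 to 1.16 and NFE2L2 from 0.03 to -0.0392, and leaving out 1 library gave NFE2L2 values of -0.00346 (without H1299 replicate 1) to 0.0531 (without H1299 replicate 3). FAS, GADD45A, CDC20, CDKN1A, INA, KLHL9 and RPL5 fell within 2-fold there. FAS, CCNG1, CDKN1A, B2M, ETV5 and RPL5 did so with the GC trend removed. The overexpressing libraries are other cells, in which HEPACAM2 is overexpressed.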

Other observations

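The windows of 15 neighbouring tested genes with the most negative medians lay mostly in zinc finger clusters of chromosome 19. Over 14463 windows, 95% of the medians lay between -1.13 and 1.06. The lowest, -2.25, was at chr19:36489649-36998700 and held ZNF529, ZNF382, ZNF461, ZNF850, ZNF790, ZNF345, ZNF829 and ZNF568 among its 15 genes. KRAB zinc finger proteins, which these clusters encode, are known repressors of transposable elements. Of 193 tested ZNF and ZFP genes on chromosome 19, a set chosen after the windows were seen, 77 were at least 2-fold higher in H1299 and 16 in A549 (median -0.80), against 43 and 27 of 234 such genes elsewhere (median -0.24). Other protein-coding genes of chromosome 19 leaned the other way in their 2-fold counts only, with 95 of 733 higher in H1299 and 173 in A549. Their median was -0.10, below 0 like those of the zinc finger genes. The zinc finger genes have a low median GC content, 42.5% against 48.4% over all genes tested, and the counts on chromosome 19 were 65 and 17 with each library's GC trend removed and 54 and 19 in the overexpressing libraries. With the GC trend removed, the other genes of chromosome 19 counted 151 higher in H1299 and 130 in A549, so their lean turned. In the overexpressing libraries they counted 132 higher in H1299 and 118 in A549 (median -0.26). The part of GC content in these counts was not otherwise tested.

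The window with the highest median, 2.05, lay at chr20:50172550-51802520. It held CEBPB, PARD6B, NFATC2 and SALL4 among its 15 genes, of which 11 were higher in A549 and 0 in H1299. Another, at chr17:40340867-41786931, had a median of 1.90 and held IGFBP4, TOP2A, KRT10, KRT15, KRT19 and JUP. There KRT15 was the 1 gene higher in H1299.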
